A study of Mus musculus with 12 samples.

Results

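The comparison set mid to late subjective day against mid to late subjective night in the mouse olfactory epithelium. Pools were assigned to its sides by their time point labels, and the comparison was chosen with earlier results of these data known. The pools at CT28, CT32, CT52 and CT56, which are phases 4 and 8 h of the cycle, formed the day side, and those at CT16, CT20, CT40 and CT44, phases 16 and 20 h, formed the night side. This took in 8 of the 12 pools and 32 of the 48 mice. The 4 pools at phases 0 and 12 h, near subjective dawn and dusk, belonged to neither side. Circadian time (CT) counts hours against the clock of an animal kept without light cues, and phase is CT within a cycle of 24 h.

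All 12 pools came from male C57BL/6 mice that had lived in a 12 h : 12 h light/dark cycle for at least 14 days before they were moved to constant darkness, and the labels name no allele, drug or age. A pool was RNA from the olfactory epithelia of 4 mice, mixed in equal amounts and read on 1 array, so each side has n = 4 pools, 2 from each of 2 successive cycles. The p-values rest on the spread from pool to pool, in which the spread between mice is averaged over 4 and cannot be separated. Values are the deposited log2 values of 1 probe per gene, and a difference is the day mean minus the night mean on that scale.

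The cellular clock is a loop in which the activators CLOCK and BMAL1 bind E-box sequences and switch on their own repressors, the period and cryptochrome proteins and the smaller repressors CIART and DEC. A linked arm pairs the REV-ERB repressors with the ROR activators, which compete at sites that control the BMAL1 gene, Arntl. Output factors of the PAR bZIP family, such as DBP, and their opponent E4BP4 compete at D-boxes. The epithelium that carries this clock holds the odour-sensing neurons, which are replaced throughout life, and the ability of mice to detect odours is known to vary with the time of day.

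Promoter windows of clock genes whose levels are described next are shown because they carry the elements through which this loop is known to act. RefSeq windows of the build GRCm38.p6, the 250 bases before each annotated start, were searched on both strands for the E-box CACGTG, its variant CACGTT, the D-box TTATGTAA, the ROR element core AGGTCA and the cyclic AMP element TGACGTCA. Of 19 measured clock genes, 17 had a window. Capitals mark the matches to the E-box in Ciart and Bhlhe41, to its variant in Nr1d1 and to the D-box in Per3. All 4 genes lie on the minus strand, and the sequences are given 5′ to 3′ on it.
Ciart, chr3:95882229-95882478: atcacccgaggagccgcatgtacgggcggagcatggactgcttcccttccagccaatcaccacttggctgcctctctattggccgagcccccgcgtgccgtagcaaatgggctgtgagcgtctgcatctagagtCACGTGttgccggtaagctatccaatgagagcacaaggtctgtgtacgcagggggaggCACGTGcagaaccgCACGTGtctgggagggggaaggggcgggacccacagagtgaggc
Bhlhe41, chr6:145865421-145865670: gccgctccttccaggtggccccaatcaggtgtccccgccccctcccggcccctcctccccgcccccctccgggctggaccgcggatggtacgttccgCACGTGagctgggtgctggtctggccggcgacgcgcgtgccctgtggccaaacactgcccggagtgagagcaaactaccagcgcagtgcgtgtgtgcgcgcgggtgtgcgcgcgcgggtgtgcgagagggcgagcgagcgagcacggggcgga
Nr1d1, chr11:98775378-98775627: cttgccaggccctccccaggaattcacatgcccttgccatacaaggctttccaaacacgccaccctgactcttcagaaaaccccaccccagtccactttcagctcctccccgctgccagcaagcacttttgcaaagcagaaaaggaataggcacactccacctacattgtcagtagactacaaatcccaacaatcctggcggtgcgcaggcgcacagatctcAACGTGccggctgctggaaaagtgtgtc
Per3, chr4:151044666-151044915: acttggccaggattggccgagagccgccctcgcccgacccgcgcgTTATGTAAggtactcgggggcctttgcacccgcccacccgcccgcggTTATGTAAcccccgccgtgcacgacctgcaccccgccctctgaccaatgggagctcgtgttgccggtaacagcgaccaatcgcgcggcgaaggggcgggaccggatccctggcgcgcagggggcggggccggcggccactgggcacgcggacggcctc

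The Ciart window held 3 E-boxes, whose first bases lay 116, 58 and 44 bases before the start. Bhlhe41 had a single E-box 153 bases before the start, and Per3 had 2 D-boxes, at 205 and 158 bases. The window of Nr1d1 held the variant box, and that of Dbp held none of the 5 motifs. Of the 17 clock genes with a window, 5 held an E-box, 4 its variant, 1 a D-box, 4 the ROR core and 1 the cyclic AMP element. Over all 32851 windows of 27025 genes these motifs were present in 6.02%, 3.85%, 0.819%, 14% and 1.55%. These shares are of windows, whereas a gene was counted if any of its windows held the motif, so the 2 are not on the same unit. Of the 26 other genes with the strongest differences or smallest p-values, 19 had a window, of which 1 held an E-box and 1 its variant, and 0 held the other 3 motifs. A match says only that the letters are present. Per1, Cry1 and Tef, the clock genes whose E-box windows are not shown, had day and night pools that overlapped.

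Markers of the labelled tissue were read first. Across the 8 pools Omp, the marker of mature olfactory neurons, read 12.70 to 13.05, and Cyp2g1, an enzyme of the sustentacular support cells, read 13.64 to 13.72. The columns had medians between 7.84 and 7.90. Pearson correlations between the 8 pools over all probes lay between 0.967 and 0.995. CT56 was the most distant pool: its correlations with the other 7 averaged 0.974, and its estimated array weight was 0.264. CT32 came next, with 0.981 and 0.398. Differences and gene list medians were also computed without CT56, while the positions of the transition pools, the fit with a mean for each phase and the sign agreement and correlation between the cycles used it throughout. The labels give no extraction or array batch, so none could be set against the day and night sides.

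Genes of the clock led the comparison, and they were its only calls. Of 19937 genes, 2 passed an adjusted p of 0.05 (limma, Benjamini-Hochberg over all genes), which is 0.0100%, and both were higher by day. These were Nr1d1 and Dbp, and both passed again without CT56. At an unadjusted p under 0.05, 690 genes (3.46%) were higher by day and 206 (1.03%) lower, 896 in all or 4.49%. Chance alone gives a share of about 0.05 at this cut, and the total did not exceed it. Without CT56 these counts were 712 (3.57%) and 243 (1.22%). These counts rested in part on single pools. Without CT40 there were 360 and 128 genes, without CT52 1056 and 424, without CT32 439 and 308, and without CT16 450 and 148.

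Overlap between the sides, which needs no model, was counted next. In 426 genes (2.14%) all 4 day pools lay above all 4 night pools, and in 169 (0.848%) all night pools lay above all day pools. Such separation is a description and not a call. With 4 pools a side, chance alone separates a share of genes close to that seen in both directions together. After quantile normalization these counts were 404 and 256. The median difference over all genes was 0.009, and 0.024 without CT56. Of all genes 54.0% had a higher day mean, and 60.6% without CT56, and the counts of higher members in the gene lists stand beside these shares. Fewer cells of a type and less RNA per cell cannot be told apart in these pools.

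Nr1d1, which encodes the repressor REV-ERBα, had the smallest p of all genes. Its day pools read 10.23, 10.26, 10.12 and 10.23 at CT28, CT32, CT52 and CT56. Its night pools read 9.56, 9.52, 9.42 and 9.41 at CT16, CT20, CT40 and CT44. The sides lay well apart, and the spread within each was small beside the gap between them. The difference was 0.73 ± 0.07 (SE, n = 4 pools a side), a 1.66-fold higher level by day (limma, adjusted p = 0.00828). Without CT56 it was 0.72 (adjusted p = 0.0219). The call was lost without CT32 (0.0586), CT40 (0.0832) or CT44 (0.0659), while the difference stayed between 0.71 and 0.76 whichever single pool was left out.

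Dbp, the PAR bZIP factor that is a direct target of the clock, read 9.55, 9.80, 9.56 and 9.91 in the day pools. In the night pools it read 8.86, 8.98, 8.99 and 8.85. Within each cycle the later day pool, CT32 or CT56, was the higher, and the night pools were close together. The difference was 0.78 ± 0.09, or 1.72-fold (limma, adjusted p = 0.0341), and 0.71 without CT56 (adjusted p = 0.0430). Over 22 alternative settings the adjusted p of Dbp ran from 0.00718 to 1.00, and it passed in 9 of them. Of the single pools, only CT28 and CT56 could be left out with the call kept. Without CT32 the adjusted p was 0.290. Nr1d1 passed in 15 of 22 settings, with a range of 0.00038 to 1.00, the highest for the second cycle alone with 2 pools a side.

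**Figure D1:**
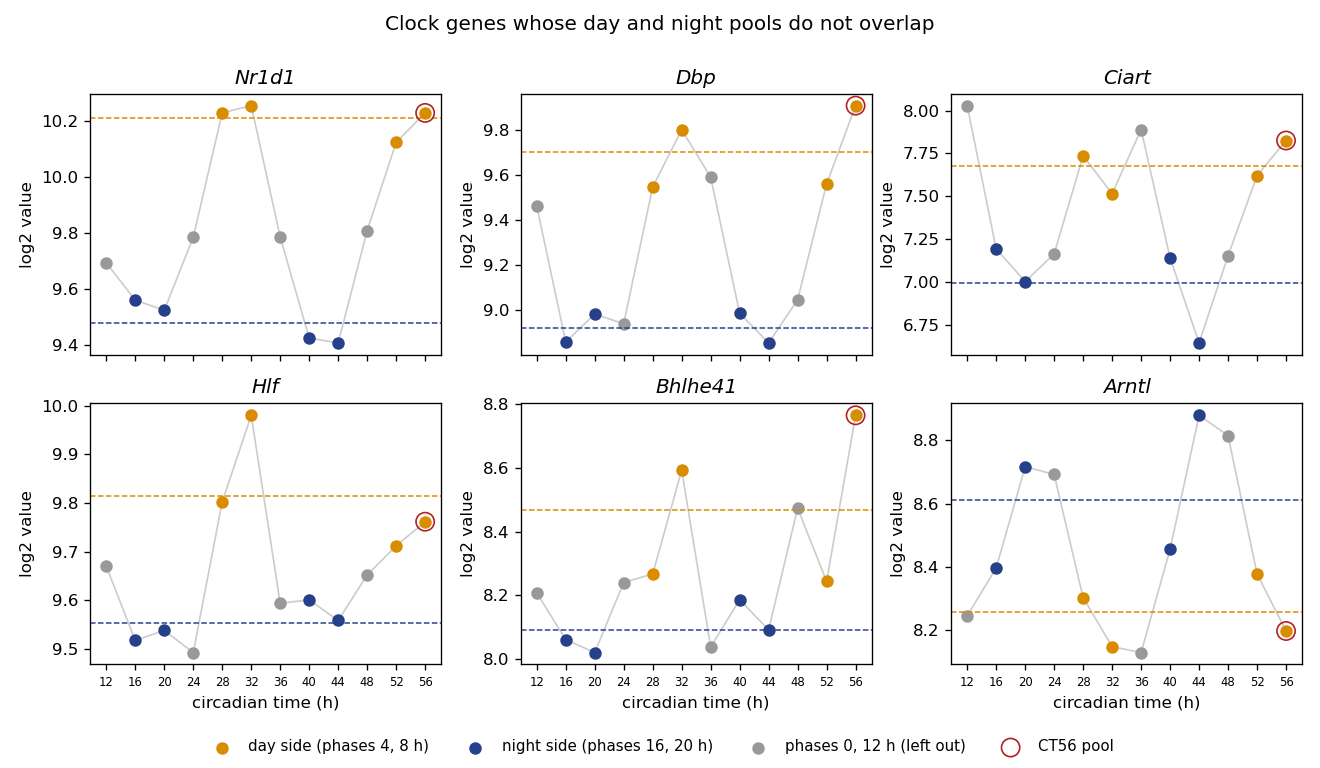
Deposited log2 values (vertical axes, scaled per panel) of 6 clock genes against circadian time in h for all 12 pools, with day pools in orange, night pools in blue, pools of phases 0 and 12 h in grey, the CT56 pool ringed and dashed lines at the day and night means. The 6 were picked as the clock genes whose orange and blue points do not overlap. Arntl runs opposite to the others, with night pools up to 8.88 and day pools down to 8.15.

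Ciart, Bhlhe40 and Bhlhe41 encode repressors that act on the CLOCK and BMAL1 complex at E-boxes. Their day means were all above their night means, and none passed over all genes. Ciart read 7.74, 7.52, 7.62 and 7.83 by day and 7.19, 7.004, 7.14 and 6.65 by night. The groups did not overlap, and CT44 was the lowest pool by a wide margin. The difference was 0.68 ± 0.12, or 1.60-fold, and 0.63 without CT56 (limma, adjusted p = 0.398 and 0.584). Bhlhe41, or DEC2, read 8.27, 8.59, 8.24 and 8.77 by day and 8.06, 8.02, 8.19 and 8.09 by night. Its day pools at phase 8 h, CT32 and CT56, stood above those at phase 4 h, which lay just above the night pools. The difference was 0.38 ± 0.11, and 0.28 without CT56 (limma, adjusted p = 0.906 and 0.996). Bhlhe40, or DEC1, overlapped between the sides, with a difference of 0.26 ± 0.10 (limma, adjusted p = 0.999).

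The other members of the PAR bZIP family and their opponent differed less than Dbp. Hlf read 9.80, 9.98, 9.71 and 9.76 by day and 9.52, 9.54, 9.60 and 9.56 by night, so that its sides did not overlap. Its difference was 0.26 ± 0.08, and 0.28 without CT56 (limma, adjusted p = 0.850 and 0.978). For Tef, the third member of the family, the difference was 0.13 ± 0.09 with overlapping pools. Nfil3, which encodes the opposing repressor E4BP4, had a difference of -0.01 ± 0.09.

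Arntl was the clock gene whose night pools all lay above its day pools. It read 8.30, 8.15, 8.38 and 8.20 by day and 8.40, 8.72, 8.46 and 8.88 by night. The night pools were split by phase, with CT20 and CT44 clearly above CT16 and CT40, and CT16 lay close to the day pool at CT52. The difference was -0.36 ± 0.11, and -0.34 without CT56 (limma, adjusted p = 0.908 and 0.996). Its partner Clock had a difference of -0.01 ± 0.08, although its phase 0 h pools, at 9.62 and 9.60, lay above all 8 compared pools. The ROR activator genes Rora and Rorb had differences of -0.07 ± 0.08 and -0.16 ± 0.08, and Nr1d2, the second REV-ERB gene, one of 0.05 ± 0.08. Arntl2, a relative of Arntl, had one of -0.02 ± 0.07.

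Among the period and cryptochrome genes, the core repressors of the loop, Per3 had the largest difference. It read 8.79, 9.10, 8.76 and 9.11 by day and 8.67, 8.79, 8.69 and 8.55 by night. The phase 8 h pools were its highest, while CT52 lay below the night pool at CT20. The difference was 0.26 ± 0.10, and 0.21 without CT56 (limma, adjusted p = 0.999 and 0.996). Per1, with -0.10 ± 0.11, and Per2, with 0.06 ± 0.08, lay near 0. The cryptochrome genes did too, with -0.12 ± 0.11 for Cry1 and 0.09 ± 0.09 for Cry2. Their pools overlapped between the sides. A difference near 0 does not mean a constant level over the cycle. Per2 read 9.38 and 9.36 at CT12 and CT36, above each of the 8 compared pools. Cry1 read 8.42 and 8.34 at CT28 and CT52 but 8.87 and 8.68 at CT32 and CT56, all on the day side. In all, 7 of the 19 measured clock genes had an unadjusted p under 0.05 with a higher day mean and 1 with a lower one, against 3.46% and 1.03% of all genes, and without CT56 the counts were 5 and 1. The median difference of the 19 was 0.06.

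Outside the clock, the largest differences among genes whose sides did not overlap belonged to genes with a higher night mean, and none passed over all genes. Kirrel2 and the ephrin receptor genes Epha5 and Epha7 encode cell surface proteins, of which Kirrel2 and Epha5 are known for the sorting of olfactory axons. Kirrel2 had the largest difference of all, 2.30-fold higher by night. It read 11.17, 10.33, 10.62 and 9.90 by day and 12.10, 11.49, 11.80 and 11.45 by night. CT56 was its lowest pool, and the sides did not overlap with or without it. The difference was -1.20 ± 0.23, and -1.002 without CT56 (limma, adjusted p = 0.453 and 0.584).

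Epha7 read 8.63, 8.79, 8.40 and 8.44 by day and 9.71, 8.95, 9.70 and 9.41 by night. CT20 was low for a night pool and lay just above the day side. The difference was -0.88 ± 0.16 (limma, adjusted p = 0.398). Without CT20 it was -1.04 and passed (limma, adjusted p = 0.0389), the only one of 22 settings in which it did, with a range of 0.0389 to 1.00. Epha5 read 9.53, 9.40, 9.23 and 9.21 by day and 9.96, 9.74, 9.99 and 9.72 by night, again with no overlap. Its difference was -0.51 ± 0.10, and -0.47 without CT56 (limma, adjusted p = 0.453 and 0.712).

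Of the 20 measured genes in the list of axon sorting and guidance molecules, Kirrel2, Epha5 and Plxna1 were lower by day at an unadjusted p under 0.05, and Slit1 was higher. Plxna1 (-0.24 ± 0.10) and Slit1 (0.23 ± 0.10) were named after their values were seen. At that cut 15% of the list was lower and 5% higher, against 1.03% and 3.46% of all genes. The list as a whole did not follow Kirrel2, since 13 of its 20 members had a higher day mean, with a median of 0.04. In the list of mature neuron genes, 7 of 13 had a lower day mean, the median was -0.002, and Kirrel2 alone had an unadjusted p under 0.05.

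Potassium channel subunit genes stood beside them. Kcng1, a modifier of voltage-gated channels, read 9.32, 9.10, 8.99 and 8.89 by day and 10.52, 9.57, 10.22 and 9.65 by night. Its CT16 and CT40 pools were far above CT20 and CT44, which still exceeded every day pool. The difference was -0.91 ± 0.19, and -0.85 without CT56 (limma, adjusted p = 0.513 and 0.855). Kcnmb3, a subunit of calcium-activated channels, read 10.63, 10.42, 10.39 and 9.93 by day and 11.54, 10.99, 11.24 and 10.91 by night. CT56 was its lowest pool, and the sides did not overlap. Its difference was -0.83 ± 0.16, and -0.69 without CT56 (limma, adjusted p = 0.453 and 0.604).

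Lrrc3b, a membrane protein with leucine-rich repeats, read 9.35, 9.61, 9.66 and 9.64 by day and 10.93, 9.89, 10.92 and 10.25 by night. It shared the order of the night pools with Kcng1, the phase 16 h pools being the higher in both cycles. The difference was -0.93 ± 0.20, and -0.96 without CT56 (limma, adjusted p = 0.594 and 0.798).

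**Figure D2:**
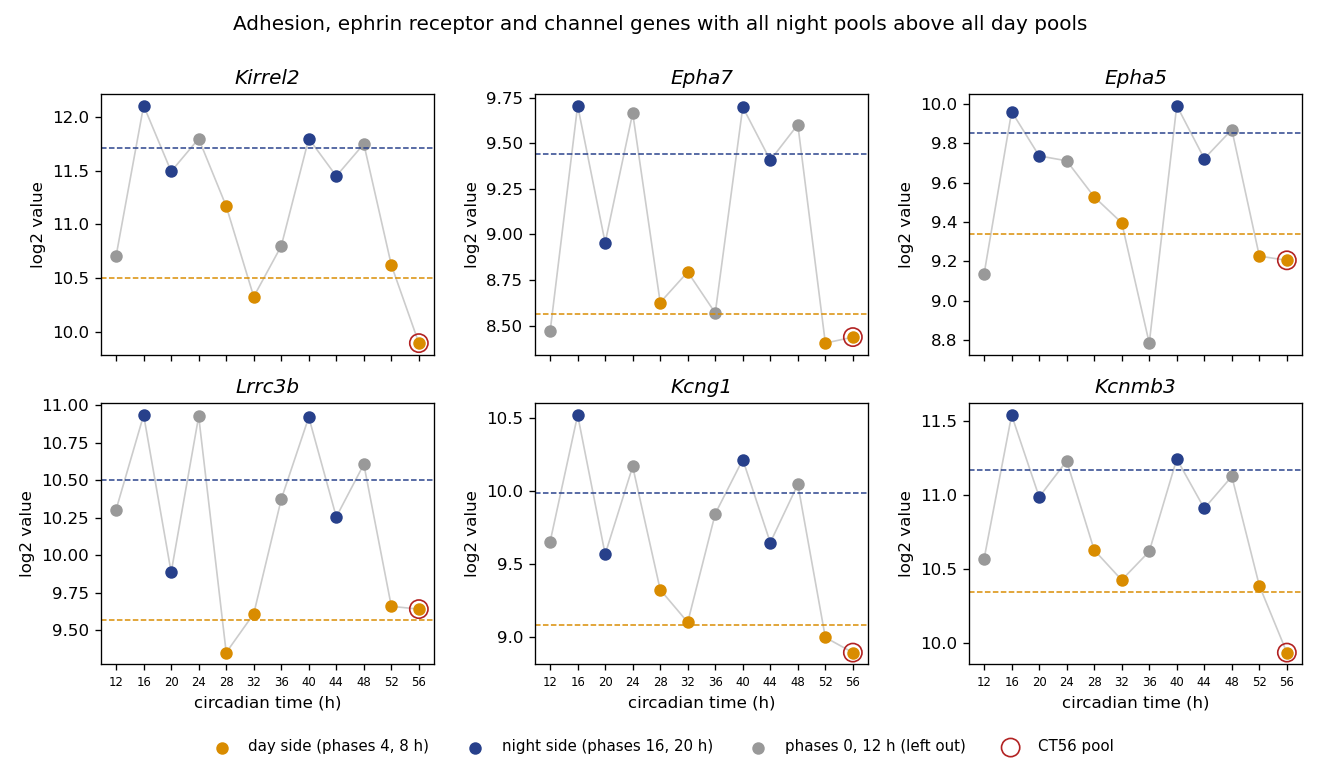
Deposited log2 values (vertical axes, scaled per panel) of 6 genes of axon adhesion, ephrin signalling and membrane channels against circadian time in h, with the same colours, ring and dashed means as in the plot of clock genes. The 6 were picked from genes with every night pool above every day pool. In Lrrc3b and Kcng1 the CT16 and CT40 pools stand 0.57 to 1.05 above the night pools that follow them by 4 h, and the phase 0 h pools are as high as the night side.

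The remaining night-high genes were of mixed function. Rasgrp4, an exchange factor for Ras, read 9.63, 9.25, 9.34 and 8.996 by day and 10.31, 9.95, 10.07 and 9.93 by night, a difference of -0.76 ± 0.13 (limma, adjusted p = 0.379). Ksr2, a scaffold of the Ras and MAP kinase pathway, read 9.79, 9.52, 9.81 and 9.46 by day and 10.58, 10.20, 10.40 and 10.13 by night, a difference of -0.68 ± 0.12 (limma, adjusted p = 0.379). Both had their highest pool at CT16. Adgrf1, an adhesion G protein-coupled receptor, read 7.66, 7.51, 7.61 and 7.41 by day and 8.03, 8.01, 8.14 and 8.005 by night. Its night pools lay close together, and its difference of -0.50 ± 0.08 had the smallest p among genes higher by night (limma, adjusted p = 0.278). Without CT56 the differences of these 3 genes were -0.66, -0.62 and -0.45 (limma, adjusted p = 0.516, 0.584 and 0.516). The class I histocompatibility gene H2-M10.3 (-0.70 ± 0.14), Ccdc141 (-0.56 ± 0.11) and the sugar phosphate transporter gene Slc37a2 (-0.39 ± 0.08) also had no overlap between the sides.

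How the spread was estimated decided which of these passed. With each of the 4 phases given its own mean, so that the spread came from pools of the same phase, the differences were unchanged by construction and 9 genes passed. These were Nr1d1, Dbp and H1f2 on the day side, and Kirrel2, Lrrc3b, Kcng1, Rasgrp4, Ksr2 and Gm6034 on the night side. Gm6034, a predicted gene, was named after its values were seen. It read 9.68, 8.65, 9.63 and 8.57 by day and 9.95, 9.60, 9.70 and 9.73 by night. Its sides overlapped, and only the phase 8 h pools were low. With the phases of a side in a common mean its adjusted p was 0.999 (limma). With a mean for each phase, the adjusted p ran from 0.0189 for Nr1d1 and Dbp to 0.0486 for Gm6034 (limma). The same 6 named genes outside the clock had 0.379 to 0.908 with the phases of a side in a common mean, and passed in no other of the 22 settings.

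Among genes with all day pools above all night pools and outside the clock, Aoc1, a diamine oxidase that degrades histamine, had the largest difference. It read 8.63, 8.14, 8.06 and 9.07 by day and 7.61, 7.78, 7.74 and 7.65 by night. CT56 and CT28 were high, and the other day pools stood not far above the night side. The difference was 0.78 ± 0.18, and 0.58 without CT56 (limma, adjusted p = 0.700 and 0.712).

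H1f2, a linker histone gene, and Mybl1, a transcription factor gene of the MYB family, shared a pattern. H1f2 read 10.40, 10.42, 10.70 and 10.37 by day and 9.24, 10.27, 9.41 and 10.25 by night. Mybl1 read 9.40, 9.37, 9.64 and 9.67 by day and 8.53, 9.32, 8.59 and 9.27 by night. In both, CT16 and CT40 were low, and CT20 and CT44 were almost at the day level. The differences were 0.68 ± 0.21 and 0.60 ± 0.18 (limma, adjusted p = 0.908 and 0.850). Of the 9 measured histone genes, 7 had a higher day mean, with a median of 0.10 with or without CT56.

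Signalling genes made up part of the day-high set. Dusp4, a phosphatase that turns off MAP kinases, read 9.53, 9.76, 9.46 and 9.58 by day and 9.11, 9.25, 9.18 and 9.14 by night, a difference of 0.41 ± 0.08 (limma, adjusted p = 0.453). Nr4a3, an immediate early nuclear receptor, read 6.58, 6.82, 6.81 and 6.60 by day and 6.35, 6.33, 6.26 and 6.12 by night, a difference of 0.43 ± 0.09 (limma, adjusted p = 0.453). The sides were separate in both, and both were as large without CT56, at 0.41 and 0.47. Dagla, which makes the endocannabinoid 2-arachidonoylglycerol, read 8.78, 9.02, 8.75 and 8.90 by day and 8.41, 8.64, 8.42 and 8.44 by night. Its CT20 pool was the highest of the night. The difference was 0.38 ± 0.09 (limma, adjusted p = 0.700). Pknox2, a homeobox gene (0.48 ± 0.10), Mpig6b, an inhibitory receptor of platelets (0.55 ± 0.11), Mpped2 (0.43 ± 0.09), Spats1 (0.56 ± 0.13), Tmem35b (0.45 ± 0.10), Lrrc34 (0.60 ± 0.17), AA388235 (0.44 ± 0.10) and the small Cajal body RNA gene Scarna13 (0.54 ± 0.13) completed the set. Lrrc34 was 0.43 without CT56, and the others lay between 0.39 and 0.58.

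**Figure D3:**
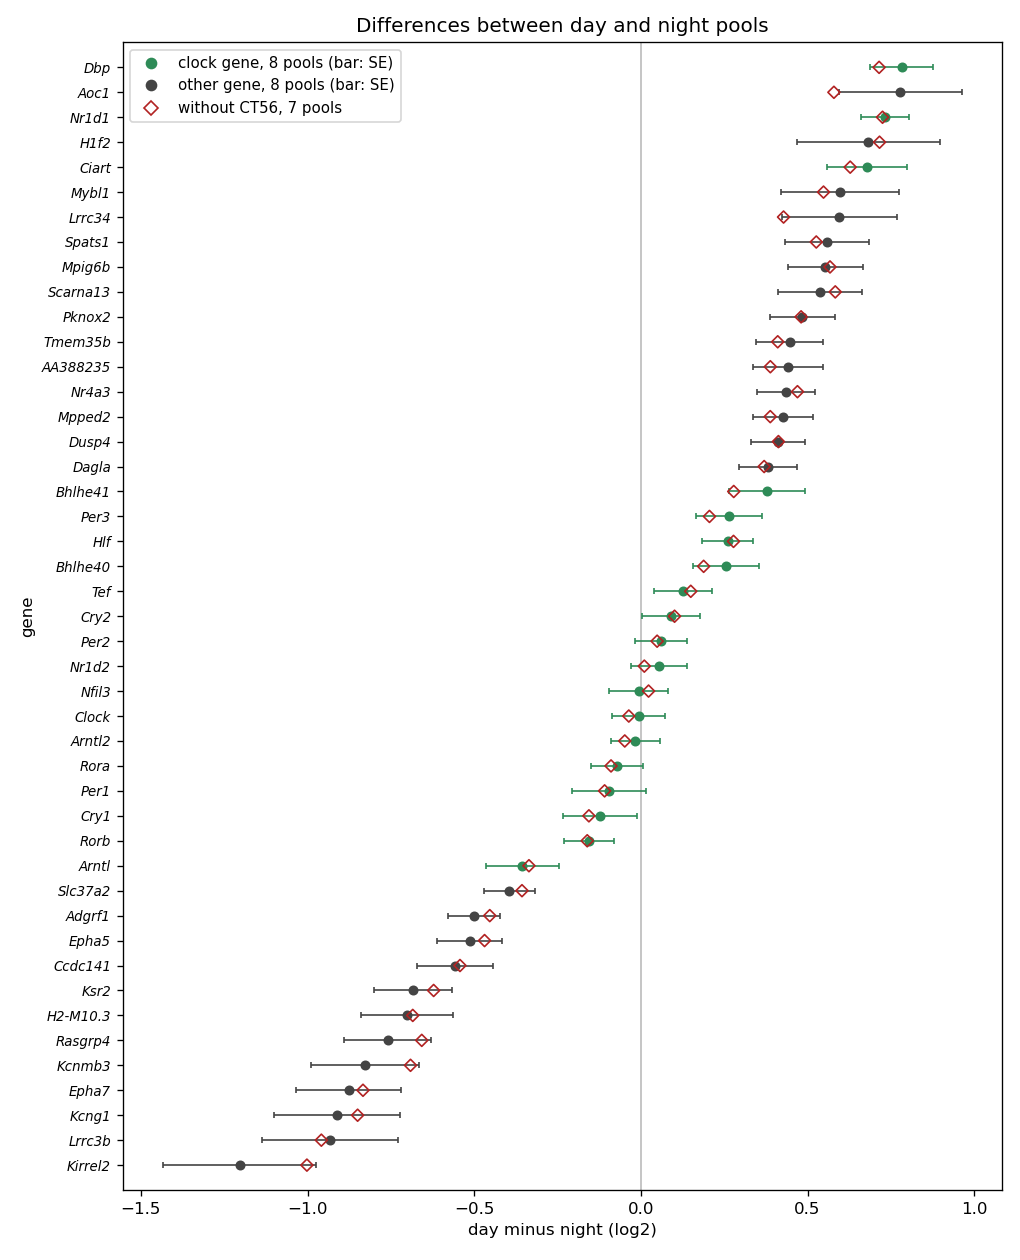
Difference between the day and night means on the log2 scale (horizontal axis) for 45 genes, the 19 clock genes in green and 26 other genes in dark grey, with bars of 1 SE and n = 4 pools a side; open red diamonds give the value without the CT56 pool. The values run from -1.20 for Kirrel2 to 0.78 for Dbp, and the diamonds stay on the same side of 0 as the filled points except for Nfil3, whose difference was -0.01.

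The pools of phases 0 and 12 h, which chose none of these genes, are described for the genes whose sides did not overlap. Their levels are given as a position, 0 at the night mean and 1 at the day mean. Over the 169 genes with all night pools above all day pools, the median position was 0.02 at phase 0 h and 0.57 at phase 12 h. At phase 0 h, 121 of them (71.6%) lay nearer the night mean, and at phase 12 h 70 (41.4%) did. Over the 426 genes with all day pools above, the median positions were 0.37 and 0.32, and 264 (62.0%) and 273 (64.1%) lay nearer the night mean. Both sets share the pools that define their 0 and 1, and these shares are descriptions without a test.

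Of the 89 named genes, 19 had all night pools above all day pools, against 0.848% of all genes. Of these, 5 were named by a rule that required it. Apart from Arntl, the rest were named by their small p in the same 8 pools, which favours such separation. All 19 lay nearer the night mean at phase 0 h, and 13 of them lay nearer the day mean at phase 12 h. Kirrel2 read 11.80 and 11.75 at CT24 and CT48 and 10.71 and 10.80 at CT12 and CT36, positions of -0.05 and 0.79. Rasgrp4 lay below every day pool at phase 12 h, with 8.65 and 8.81 at CT12 and CT36. Epha5 did the same, with 9.14 and 8.78. Arntl was at its night level or above at phase 0 h, with 8.69 and 8.81, and at its day level at phase 12 h, with 8.24 and 8.13. Lrrc3b, Kcng1, Sgk1, Rbm3, Cyp1a1 and Vmn1r15 lay nearer the night mean at both transitions, with positions at phase 12 h from -0.04 for Cyp1a1 to 0.46 for Sgk1.

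The clock genes of the day side left the day level at different transitions. Ciart was at its highest at phase 12 h, with 8.03 and 7.89 at CT12 and CT36, above every day pool. Dbp lay nearer its day mean there, with 9.46 and 9.59, and near its night mean at phase 0 h, with 8.94 and 9.05. Nr1d1 was intermediate at both, with 9.78 and 9.81 at phase 0 h and 9.69 and 9.79 at phase 12 h. Bhlhe41 ran the other way, with 8.24 and 8.47 at phase 0 h and 8.21 and 8.04 at phase 12 h.

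**Figure D4:**
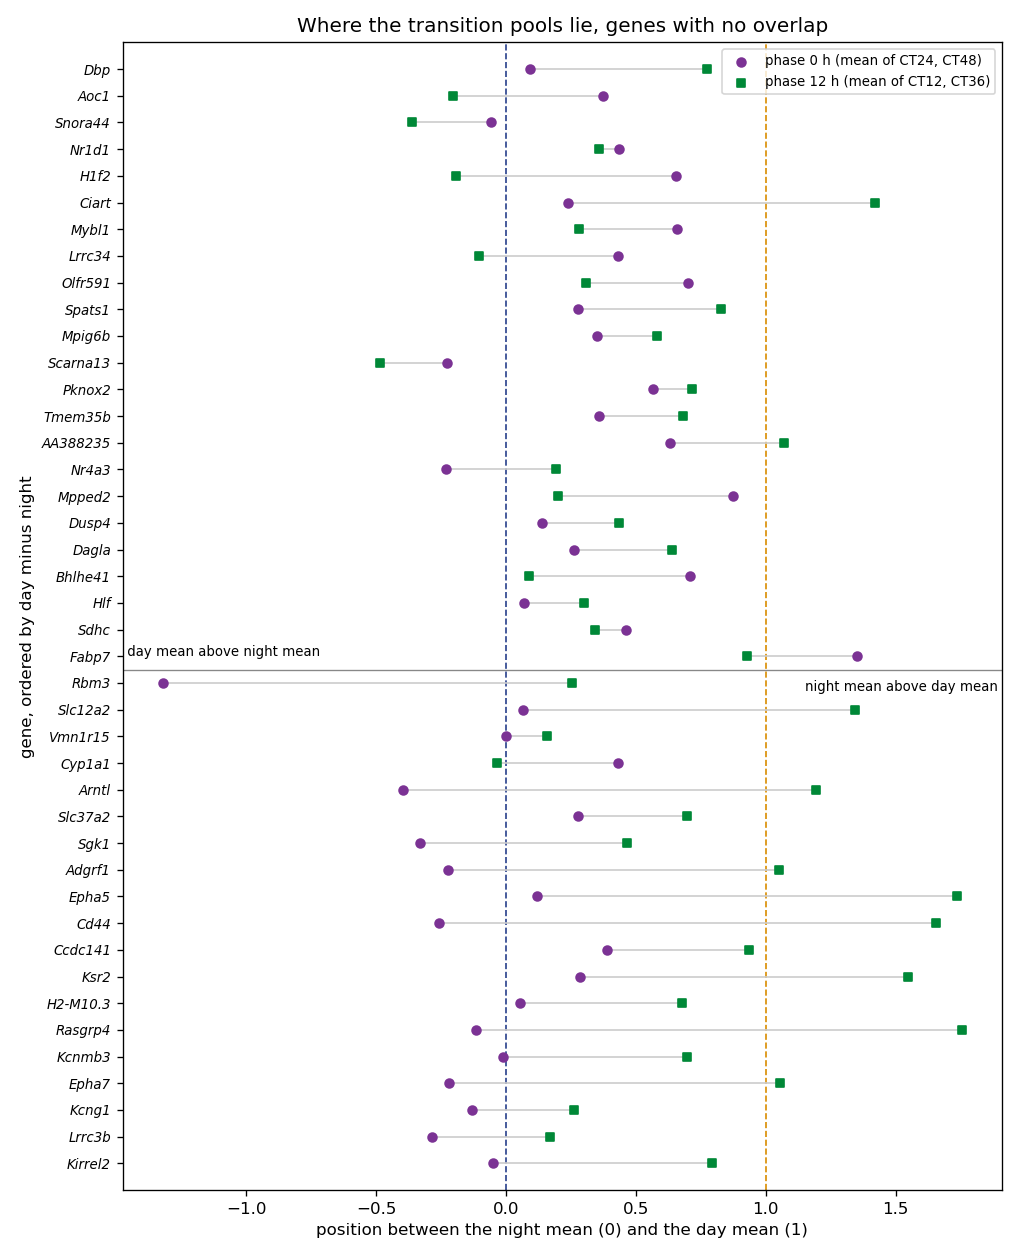
Position of the phase 0 h pools (purple circles, mean of CT24 and CT48) and phase 12 h pools (green squares, mean of CT12 and CT36) between the night mean, 0, and the day mean, 1, for the 42 named genes whose day and night pools did not overlap, ordered by their difference. The 19 night-high genes have circles between -1.32 for Rbm3 and 0.43 for Cyp1a1 and 13 squares nearer the day line, while of the 23 day-high genes 15 have circles nearer the night line and 9 have squares nearer the day line.

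Genes tied to stress hormones leaned to the night side, while those tied to neuronal activity showed no common direction. Of 13 measured targets of the glucocorticoid receptor, 9 had a lower day mean and the median was -0.10, and -0.08 without CT56. Sgk1, a kinase gene induced by glucocorticoids, read 9.65, 9.65, 9.52 and 9.65 by day and 10.22, 9.89, 10.23 and 9.90 by night. The sides did not overlap, and the phase 16 h pools were the highest. The difference was -0.44 ± 0.10 (limma, adjusted p = 0.582). Dusp1 (-0.53 ± 0.14) and Nfkbia (-0.22 ± 0.07), named after their values were seen, also had an unadjusted p under 0.05. That makes 3 of 13 lower against 1.03% of all genes. The median of this list was below 0 in every alternative run.

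Of 21 immediate early genes, which neurons switch on with activity, 12 (57.1%, against 54.0% of all genes) had a higher day mean. Their median was 0.02. Nr4a3, Jund (0.35 ± 0.10), Jun (0.25 ± 0.11) and Fosl2 (0.20 ± 0.09) had an unadjusted p under 0.05 with a higher day mean, and Dusp1 with a lower one. All of these but Nr4a3 were named after their values were seen. The higher ones were 19.0% of the list and the lower 4.76%, against 3.46% and 1.03% of all genes. Known clock outputs of many tissues showed no common direction, with 6 of 15 higher by day. Tfrc, the transferrin receptor gene, had the smallest p there, with -0.31 ± 0.14 in 8 pools and -0.44 without CT56, where it read 9.39 against 8.88 to 8.90 in the other day pools.

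The machinery of odour detection showed little difference. Of 20 measured genes of odorant transduction, 11 had a higher day mean and the median was 0.02. The chloride importer gene Slc12a2 read 12.02, 12.05, 12.03 and 12.01 by day and 12.14, 12.16, 12.20 and 12.21 by night. Its sides were narrow and separate, with a difference of -0.16 ± 0.06 (limma, adjusted p = 0.999). Immature neuron genes, with 12 of 16 higher by day and a median of 0.06, were led by Dcx, a microtubule-binding protein of migrating neurons, with 0.25 ± 0.10. Proliferation genes had a median of 0.03 and 0 of 22 at an unadjusted p under 0.05, and the globose basal progenitor genes 0 of 8. Of all genes 4.49% had such a p.

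Odorant receptor genes showed what a single pool did to a large family. Of 1015, 704 (69.4%, against 54.0% of all genes) had a higher day mean and the median was 0.06. Without CT56 539 were higher (53.1%, against 60.6%) and the median was 0.006. At an unadjusted p under 0.05, 40 were higher (3.94%, against 3.46% of all genes) and 4 lower (0.394%, against 1.03%). Without CT56 17 were higher and 19 lower, where the shares of all genes were 3.57% and 1.22%. Olfr591 had the smallest p, with 9.33, 9.94, 9.47 and 9.46 by day and 8.88, 8.96, 8.93 and 9.15 by night. CT32 was its highest pool. The difference was 0.57 ± 0.12, and 0.60 without CT56 (limma, adjusted p = 0.582 and 0.712). Probes for such receptors can bind related members of the family. Of 163 vomeronasal receptor genes, 62 (38.0%, against 54.0% of all genes) had a higher day mean, with a median of -0.03. At an unadjusted p under 0.05, 8 were lower (4.91%, against 1.03% of all genes), and 7 without CT56. Of 13 trace amine receptor genes, 0 had an unadjusted p under 0.05, against 4.49% of all genes.

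Genes of motile cilia, the beating structures of respiratory cells, leaned to the day side. Of 24 measured, 22 had a higher day mean, the median was 0.19 and 8 had an unadjusted p under 0.05, or 33.3% against 3.46% of all genes. Without CT56 21 were higher, the median was 0.13 and 7 had such a p. Lrrc23, a radial spoke protein gene, read 8.69, 8.95, 8.54 and 8.95 by day and 8.33, 8.55, 8.46 and 8.48 by night. CT52 lay within the night range, and the difference was 0.33 ± 0.10 (limma, adjusted p = 0.908). The mean of the list, centred on its mean over the 8 day and night pools, ran from -0.09 to 0.21 by day. By night it ran from -0.19 to -0.01, and CT52 was the low day pool. The secretory genes of respiratory epithelium had all 10 members higher by day, with a median of 0.16, and 0.10 without CT56, where 9 were higher. Muc4, a membrane mucin gene, had a difference of 0.32 ± 0.13, and 0.22 without CT56. The defining marker Foxj1 of ciliated cells read 8.80 to 9.10, with a difference of 0.16. Whether the pools differed in their share of respiratory tissue was not tested.

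Secreted products of the nasal glands varied between pools far more than between the sides. Bpifb9b ran from 7.20 to 13.12 across the 8 pools and Obp1a, an odorant-binding protein gene, from 9.13 to 13.49. Their differences were 1.01 and 0.45 with unadjusted p of 0.333 and 0.577 (limma). The centred list mean of gland genes ran from -0.13 to 0.69 by day and from -0.66 to 1.03 by night. Both genes were named after their values were seen.

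Energy metabolism and detoxification showed small differences. Of 73 subunit genes of oxidative phosphorylation, 58 (79.5%, against 54.0% of all genes) had a higher day mean with a median of 0.06. Without CT56 43 did (58.9%, against 60.6%), and the median of 0.024 was that of all genes. Sdhc, of the succinate dehydrogenase complex, read 10.84, 10.84, 10.69 and 10.82 by day and 10.59, 10.68, 10.56 and 10.43 by night. Its sides barely separated, CT52 being just above CT20. The difference was 0.23 ± 0.08 (limma, adjusted p = 0.908). Cholesterol synthesis genes had 14 of 19 higher by day with a median of 0.07. None had an unadjusted p under 0.05, against 4.49% of all genes. Cyp1a1, a xenobiotic-oxidising enzyme gene, read 9.94, 9.996, 9.90 and 9.88 by day and 10.12, 10.30, 10.35 and 10.14 by night, with no overlap and a difference of -0.30 ± 0.08 (limma, adjusted p = 0.762). Cd44, the hyaluronan receptor gene, read 8.83, 8.33, 8.71 and 8.31 by day and 8.83, 9.18, 8.998 and 9.30 by night. CT16 and CT28 almost met. Its difference was -0.53 ± 0.14 (limma, adjusted p = 0.724).

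Support cell genes had no common direction, although Ermn, a cytoskeletal protein gene of sustentacular cells, read 9.51, 9.68, 9.63 and 9.90 by day and 10.22, 9.81, 10.32 and 9.999 by night. CT56 and CT20 overlapped. The difference was -0.41 ± 0.12, and -0.48 without CT56 (limma, adjusted p = 0.850 and 0.896). Ifit1, an interferon-induced gene, read 9.44, 9.34, 9.63 and 9.81 by day and 10.22, 9.79, 10.23 and 10.002 by night, a difference of -0.50 ± 0.12 (limma, adjusted p = 0.700). Its relative Ifit2, named after its values were seen, had the opposite sign, with 0.23 ± 0.08.

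The medians of muscle and brain markers moved to near 0 when the CT56 pool was left out, while that of neutrophil markers moved less and that of bone and cartilage markers moved away from 0. Of 17 skeletal muscle genes, 15 had a lower day mean with a median of -0.07, but without CT56 11 were higher and the median was 0.007. Their centred mean was -0.28 at CT56 and between -0.08 and 0.16 in the other day pools. Brain genes had a median of -0.08, and -0.005 without CT56. All 11 neutrophil genes had a lower day mean with a median of -0.10, and without CT56 10 of 11 did, with a median of -0.07 and 0 at an unadjusted p under 0.05. Their centred mean was -0.18 at CT32 and -0.06 at CT56, and 0.15 and 0.18 in the night pools CT16 and CT20. Their median difference was -0.25 in the first cycle alone and 0.09 in the second, so its sign turned between the cycles. Of 11 bone and cartilage genes 9 had a lower day mean, with a median of -0.04, and without CT56 7 did, with -0.06. Their centred mean was -0.16 at CT32 and -0.12 at CT56, and 0.25 in the night pool CT44. Macrophage and lymphocyte genes had medians of -0.02 and -0.04. Small nucleolar RNA genes showed the largest reversal. Of 51, 49 had a higher day mean with a median of 0.16, and without CT56 12 did, with a median of -0.08. At CT16, CT20, CT28 and CT32 of the first cycle their centred mean was -0.22, -0.33, -0.52 and -0.26. It was -0.02, 0.23, 0.32 and 0.81 at CT40, CT44, CT52 and CT56 of the second. Their median difference was -0.15 in the first cycle alone and 0.48 in the second. Snora44 had a difference of 0.74 ± 0.14, and 0.83 without CT56 (limma, adjusted p = 0.453 and 0.516).

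**Figure D5:**
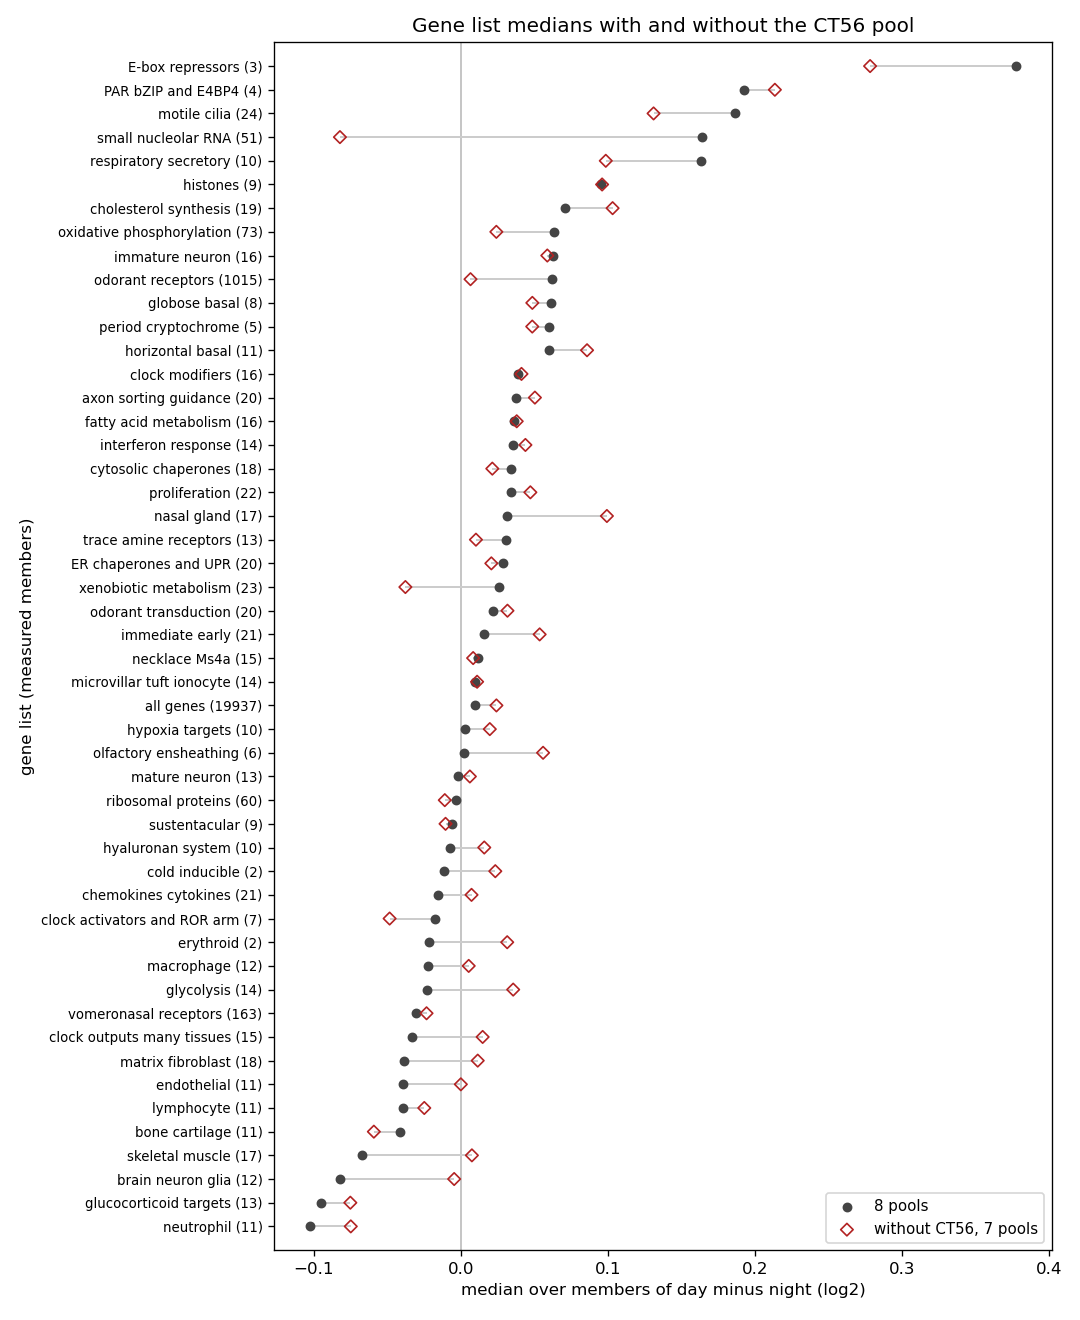
Median difference between day and night on the log2 scale (horizontal axis) over the measured members of each gene list, whose number stands in brackets, with filled circles for 8 pools and open red diamonds for 7 pools without CT56. The lists of E-box repressors (0.38 and 0.28) and PAR bZIP factors (0.19 and 0.21) stay at the day end, motile cilia genes follow with 0.19 and 0.13, and small nucleolar RNA genes cross 0.

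Over all genes the day and night difference of the first cycle was a poor guide to that of the second. Day minus night was computed in the first cycle from CT28, CT32, CT16 and CT20 and in the second from CT52, CT56, CT40 and CT44, which share no pool. Over all 19937 genes 53.4% had the same sign in both, and the Pearson correlation across genes, which are not independent, was 0.13. Nr1d1 had differences of 0.70 and 0.76 in the first and second cycle, and Dbp 0.75 and 0.81. A test of the difference between the cycles called 0 genes (limma, smallest adjusted p = 1.00), with 450 genes (2.26%) at an unadjusted p under 0.05. Without CT40 it called 9 genes and without CT52 it called 2. The genes of smallest p in this test were Eid3, Calu and Llph. Calu, a calcium-binding protein of the secretory pathway, read 9.29 and 9.44 by day against 8.91 and 9.02 by night in the first cycle, and 8.83 and 8.93 against 9.19 and 9.18 in the second. Its sign turned between the cycles. Eid3 and Llph shared the feature that CT52 and CT56 were their lowest pools of the 8, at 6.52 and 6.53 and at 9.32 and 9.14.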

How the data were processed

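RNA of 12 pools of mouse olfactory epithelium was read on Affymetrix whole-transcript arrays, 1 per pool, after Trizol extraction and random-primed amplification per the labels' protocols. The deposited values, 1 per probe and pool, span 3.48 to 14.47, and this range was taken to mean log2 intensities. Per the submitters' processing notes the authors used affy. How background was corrected and arrays were normalized is not given in the sources used here. With 1 array a pool, the number of arrays limits the precision.

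Of 34760 probes, 22961 were in the platform annotation, 21640 with 1 symbol and 1321 with several, and 21553 matched a RefSeq gene of GRCm38.p6 by Entrez ID. The probe of highest mean stood for each of 19937 genes. The 13120 probes without 1 symbol were fitted apart and gave 0 calls (limma, 452 at an unadjusted p under 0.05). Day was compared with night by limma 3.58.1 (lmFit and eBayes, R 4.3.3, and version 1.17.8 of the data.table package) on 8 pools, with Benjamini-Hochberg adjustment over all genes, a threshold of 0.05 and no filter. The change of that difference between cycles was fitted as an interaction. The fit was tested on simulated data. Figures used matplotlib 3.10.9, numpy 2.4.6, pandas 2.3.3 and Python 3.11.15.

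The comparison, its 49 gene lists and the rules were chosen with earlier results of these data known, so lists are described by counts and medians, to be read beside the shares and the median of all genes, and carry no test. Named genes were the 19 measured clock genes, up to 10 per direction by smallest p, 5 per direction by size among genes whose sides did not overlap (receptor, vomeronasal, small nucleolar, microRNA, predicted, Rik and LOC genes left out), the smallest-p member of each other list, and 3 genes for the change between cycles. The alternatives were all 12 pools, 6 pools a side, phase as a factor, cycle as a block, each cycle alone, array weights, a prior for the variance that is trended and robust, averaging a gene's probes, dropping genes under the 25th or the 50th percentile of level, centring each array on its median, quantile normalization and leaving out each pool. Leaving out CT32 and CT56 together was added after the data had been seen.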

Additional observations from a re-analysis of the deposited data

Results flagged for a closer look

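Within each side, the 4 pools of every named gene and list mean were checked for a single pool far from the others, by the gap to its nearest neighbour as a share of the whole range against Dixon's critical value. Of 276 groups of 4 pools, 13 exceeded it, where chance alone gives about 1 in 20, or 13.8.

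Among the day pools, CT52 was the one apart in 4 genes. It was low in Rora (8.41 against 8.64 to 8.66 in the others, a share of 0.942), Sgk1 (9.52 against 9.65, 0.958) and Sdhc (10.69 against 10.82 to 10.84, 0.878), and high in H1f2 (10.70 against 10.37 to 10.42, 0.867). CT56 was high in Tfrc (9.39 against 8.88 to 8.90, 0.962) and low in the lymphocyte gene Cd8a (7.11 against 7.37 to 7.39, 0.920). CT28 was low in Lrrc3b (9.35 against 9.61 to 9.66, 0.839). CT32 was high in the mean of the odorant transduction genes (11.68 against 11.56 to 11.58, 0.838) and in that of the nasal gland genes (10.46 against 9.63 to 9.67, 0.958).

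Among the night pools, CT20 was high in Dagla (8.64 against 8.41 to 8.44, 0.859) and in the mean of the necklace neuron and Ms4a genes (6.98 against 6.94 to 6.95, 0.885). CT44 was low in the mean of the clock modifier genes (9.28 against 9.34 to 9.35, 0.872), and CT16 in that of the respiratory secretory genes (9.02 against 9.29 to 9.33, 0.868).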

How the results depend on the processing

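Against 2 calls, limma called 1 gene with all 12 pools, with cycle as a block or with median centring, 9 with phase as a factor, 3 with array weights (the third being Snora44, adjusted p = 0.0294), and 0 in the second cycle alone, with 6 pools a side or without CT32 and CT56 together. Leaving out single pools gave 0 to 2. The first cycle alone also gave 2, which were not Nr1d1 and Dbp but the gland genes Bpifb9a and Bpifb9b. At an unadjusted p under 0.05, genes higher by day numbered 289 in the second cycle, 1134 with 6 pools a side and 360 to 1056 without single pools. Those lower by day numbered 395 with phase as a factor, 328 in the first cycle, 557 with array weights, 831 with 6 pools a side, 466 without CT32 and CT56 and 128 to 424 without single pools. Genes with no overlap depend on the number of pools. All day pools were above in 3877 and 3417 genes in the first and second cycle, 268 above the 50th percentile of level, 35 with 6 pools a side, 1828 without CT32 and CT56 and 498 to 1036 without single pools. All night pools were above in 3074, 2254, 106, 11, 1257 and 265 to 476 genes, and in 256 after quantile normalization. The change between cycles gave 0 to 9 calls without single pools.

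The difference of Nr1d1 was 0.70 and 0.76 in the cycles alone, 0.51 with 6 pools a side, 0.70 without CT32 and CT56 and 0.71 to 0.76 without single pools, past the threshold in 15 of 22 settings. That of Dbp was 0.78 with all 12 pools, with a cycle block and with centring, 0.75 and 0.81 in the cycles, 0.34 with 6 pools a side, 0.63 without both pools and 0.71 to 0.83 without single pools, past the threshold in 9 of 22. The cycle fits have 2 pools a side, and 6 pools a side adds the transition pools. For other losses the cause was not tested. Of 89 named genes, 76 kept their sign in every setting, and 9 of 49 list medians did. The medians of the sustentacular, hypoxia and ensheathing lists turned sign under a rescaling. No paired analysis was possible because the pools carry no replicate numbers that pair a day pool with a night pool; cycle as a block stands in its place.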

Other observations

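Other gene groups measured in the 8 pools, with no member past the threshold (limma, over all genes), gave small differences. Of 18 cytosolic chaperone genes 11 had a higher day mean, with a median of 0.03. Hsph1, a heat shock protein gene, read 8.63, 8.87, 8.51 and 8.71 by day and 8.35, 8.48, 8.47 and 8.60 by night, and its sides overlapped at CT52. The cold-inducible gene Rbm3 read 12.004, 12.04, 12.06 and 12.02 by day and 12.06, 12.10, 12.13 and 12.13 by night, a difference of -0.07 ± 0.06. Of 20 chaperones of the endoplasmic reticulum 11 were higher by day, with Edem1, which helps clear misfolded proteins, at 0.21 ± 0.09. Among 16 kinases and ubiquitin enzymes that tune the clock, 11 had a higher day mean, and Btrc, a subunit that targets period proteins for destruction, had a difference of 0.22 ± 0.09.

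The glucose transporter gene Slc2a1 read 11.02, 10.98, 10.73 and 10.60 by day and 11.09, 11.08, 11.08 and 11.0002 by night. Its difference of -0.23 ± 0.10 was -0.15 without CT56, its lowest pool, and the median of the 14 glycolysis genes went from -0.02 to 0.04. The median of 60 ribosomal protein genes was -0.003. Of 21 chemokine and cytokine genes 12 had a lower day mean, with a median of -0.02, and without CT56 8 did, with 0.007. An unadjusted p under 0.05 was reached by 2 of them (9.52%, against 3.46% of all genes), both higher by day. These were Ccl3, a chemokine gene (0.30 ± 0.10), and the alarmin gene Il33, named after its values were seen (0.30 ± 0.11). Tyrobp, an adaptor of myeloid receptors, had 0.22 ± 0.09, and 0.14 without CT56. Fabp7, a lipid-binding protein gene of ensheathing glia, read 12.36, 12.26, 12.31 and 12.31 by day and 12.04, 12.14, 12.24 and 12.24 by night, with no overlap and a difference of 0.15 ± 0.07. Of 15 genes of necklace neurons 10, and of 14 of microvillar cells 9, had a higher day mean, both with a median of 0.01.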
